A study of Mus musculus with 2 samples.

Results

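Imprinted microRNA (miRNA) genes of the upstream part of the Dlk1-Dio3 region on mouse chromosome 12 were examined in embryonic heart. The members were chosen from a list of 10 gene symbols (Mir493, Mir337, Mir540, Mir665, Mir431, Mir433, Mir127, Mir434, Mir136 and Mir370), of which 9 matched a row of the count tables by gene ID, out of 1973 miRNA genes in all. Mir136 matched no row by its gene ID and was not counted among the members analysed. The study sequenced small RNAs, at a size limit of 30 nt, from hearts of healthy B6NCrl mouse embryos at day 11.5, male and female embryos pooled. Its 2 libraries, biological replicates 1 and 2, form a single group with no treatment, mutation or transgene. Replicate 1 pooled hearts of 109 embryos, and the labels give no number for replicate 2. Because whole hearts were pooled, fewer cells of a type and less RNA per cell cannot be told apart.

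The Dlk1-Dio3 region carries genes that are read from the maternal or the paternal chromosome only. Long noncoding RNAs such as Meg3, Rian and Mirg, together with many miRNA hairpins, come from the maternal copy, while Dlk1, Rtl1 and Dio3 are expressed from the paternal copy. Rtl1 is a gene derived from a retrotransposon and is needed in the placenta and its fetal capillaries. Some of the maternal hairpins lie within the antisense transcript of Rtl1, so that their mature miRNAs pair fully with the Rtl1 mRNA and can guide its cleavage. The present counts give no information on the parental copy.

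The label "Rtl1-antisense" held for some members only. In the GENCODE M21 annotation (build GRCm38, also called mm10), all 10 listed members lie on the plus strand of chromosome 12, within 38104 bases from Mir493 to Mir370. Rtl1 lies on the minus strand at chr12:109589193-109600330. Mir431, at chr12:109590447-109590537, Mir433, at chr12:109591715-109591838, Mir127, at chr12:109592846-109592915, and Mir434, at chr12:109594506-109594599, each lie opposite the coding exon of Rtl1, as does the uncounted Mir136. Mir493, at chr12:109580233-109580315, Mir337, at chr12:109585789-109585885, Mir540, at chr12:109586080-109586146, and Mir665, at chr12:109586314-109586407, lie between Meg3 and Rtl1, outside any annotated gene on their own strand. Mir370, at chr12:109618258-109618336, lies in an intron of Rian, beyond Rtl1. Mir337, Mir540 and Mir665 are crowded, with gaps of 194 and 167 bases, whereas 22869 bases separate Mir136 from Mir370.

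The mature miRNAs of the 4 counted genes opposite Rtl1 are shown because they carry the link to Rtl1. The sequences are those of RefSeq on GRCm38.p6, 5′ to 3′, and capitals mark the seed, bases 2 to 8, which leads target recognition.
miR-431-5p: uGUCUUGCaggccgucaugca
miR-431-3p: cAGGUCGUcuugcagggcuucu
miR-433-5p: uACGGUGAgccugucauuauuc
miR-433-3p: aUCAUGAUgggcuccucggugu
miR-127-5p: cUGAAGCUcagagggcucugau
miR-127-3p: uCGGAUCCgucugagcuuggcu
miR-434-5p: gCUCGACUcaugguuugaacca
miR-434-3p: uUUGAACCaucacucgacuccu

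Each of these arms had 1 full complement in the 6358-base Rtl1 mRNA of GENCODE M21, inside its coding part. The site of miR-127-3p spans bases 2642 to 2663 of the mRNA, and that of miR-431-5p spans bases 5072 to 5092. Capitals in the sites mark the bases opposite the seed.
miR-127-3p site: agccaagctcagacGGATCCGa
miR-431-5p site: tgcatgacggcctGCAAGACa
With both arms of Mir136, 10 of the 20 mature sequences of the listed members were fully complementary to Rtl1, and the arms of Mir493, Mir337, Mir540, Mir665 and Mir370 were not. The full complements follow from the position of these genes opposite the Rtl1 coding exon and are no separate finding.

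The members shared no seed with each other, so they form no seed family: the 20 mature sequences held 20 different seeds. Of these, 18 were found in no other mature miRNA of the RefSeq table, beside 71.6% of its 1738 mature entries. The exceptions were miR-540-3p, which shares its seed with miR-6915-5p, and miR-370-5p, which shares its seed with miR-1193-3p. No mature sequence of a member occurred in the hairpin of another gene, and no run of 20 bases of a member's hairpin recurred in another hairpin of the table. Hairpins were 62 to 124 nt long with a GC content of 40.3 to 61.2%.

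Depth differed between the libraries. Reads on the gene's own strand, summed over all miRNA genes, numbered 18467499 in replicate 1 and 2017294 in replicate 2, and levels are given as CPM, the own-strand counts of a gene scaled to a library total of 1000000. A count of 0 allowed up to 0.162 CPM in replicate 1 and 1.49 CPM in replicate 2. The heart label was checked on miRNAs known from other work to mark tissues. The cardiac muscle list (Mir208a, Mir208b and Mir499) summed to 60764 ± 3356 CPM, the endothelial Mir126a stood at 82102 ± 3673 CPM and the smooth muscle list (Mir143 and Mir145a) summed to 96176 ± 3464 CPM (SD, n = 2). Mir1a-1, at 2.98 and 1.49 CPM in replicates 1 and 2, and Mir133a-1, at 1.62 and 5.45 CPM, are also muscle miRNA genes but carry mature sequences found at more than 1 locus, and reads that map to several places are not in these counts. The brain and nerve list summed to 173 ± 8.1 CPM with 3 of its 9 counted genes at 0. Its genes are numbered copies, such as Mir128-1 and Mir128-2. Reads common to such copies may be missing, so the low sum does not show that neural miRNA was scarce. The leukocyte list summed to 381 ± 21 CPM and the red cell list to 989 ± 8.1 CPM. Higher than these was the epithelial list, at 1816 ± 464 CPM, and the liver miRNA Mir122 stood at 278 ± 166 CPM.

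All 9 counted members reached 1 CPM in each library, the limit of detection used, which 21.2% of all 1973 genes did. Their counts numbered 288050 in replicate 1 and 30991 in replicate 2. They took 1.56% of miRNA counts in replicate 1 (exact 95% Clopper-Pearson interval 1.554 to 1.565%) and 1.54% in replicate 2 (1.519 to 1.553%), a mean of 1.55% ± 0.017 (SD, n = 2). Of all reads in the table, unmapped and multimapping ones included, the members took 0.499% in replicate 1 and 0.636% in replicate 2, so the shares were close only relative to miRNA counts. Among themselves the members spanned a 28.8-fold range of mean CPM. The median member stood at 1002 CPM, beside 80.5 CPM for the median of the 419 detected genes. At 1000 CPM or more in both libraries stood 4 of the 9 members, beside 4.31% of all genes. A member's count sums both arms of its hairpin, so the levels do not show which arm was present.

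Mir431 led the members. Its product has been reported to act in skeletal myoblasts of mouse. It had 5988 CPM in replicate 1 and 5969 CPM in replicate 2, which placed it at rank 30 of all genes. It made up 38.4% of the members' counts in replicate 1 and 38.9% in replicate 2. Mir127, whose loss in mouse affects the placental labyrinth, came second at 4220 and 4060 CPM in replicates 1 and 2. Together Mir431 and Mir127 held 65.4% and 65.3% of the members' counts.

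The remaining genes opposite Rtl1 were lower. Mir433 had 1253 CPM in replicate 1 and 1343 CPM in replicate 2. Mir434 had 984 CPM and 1020 CPM in replicates 1 and 2. Both stood several-fold below the leading pair in each library, and all 4 lie opposite the same Rtl1 exon.

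Among the genes between Meg3 and Rtl1, Mir337 was the highest, with 1302 CPM in replicate 1 and 1148 CPM in replicate 2. Mir540 had 718 and 660 CPM, and Mir665 had 437 and 432 CPM. Level thus fell in map order across these 3 closely spaced hairpins in both libraries. Mir493, the member nearest to Meg3, was the lowest of all, at 209 and 206 CPM and rank 155. Mir370, in the Rian intron, had 487 CPM in replicate 1 and 523 CPM in replicate 2; its product has been reported to act on the carnitine palmitoyltransferase gene CPT1A in human liver cells.

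**Figure D1:**
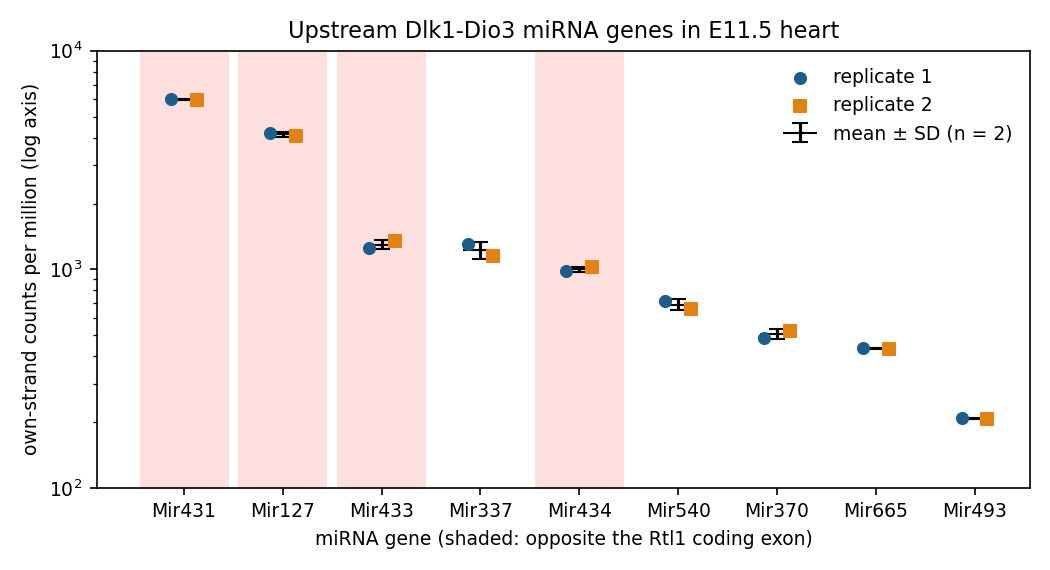
Own-strand CPM (log axis) of the 9 counted members in replicates 1 and 2, ordered by mean, with the mean ± SD over the 2 libraries and shading for genes opposite the Rtl1 coding exon. Mir431 and Mir127 stand at 4060 CPM or more in both libraries, and Mir493 near 207 CPM is the lowest.

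The order of levels was then examined within each library, as the log2 ratio of each member's counts over those of the next lower one, with an exact binomial 95% interval. A pair counted as different beyond the spread when the 2 libraries had the same direction, neither interval held a ratio of 1, and the mean log2 ratio was larger than its SD. The pairs were formed by sorting on the mean of the same libraries, so the direction of the mean was set beforehand and the rule says only whether each library kept it beyond its interval. By this rule 7 of the 8 neighbouring pairs stood apart. Mir431 exceeded Mir127 1.44-fold, with a log2 ratio of 0.53 ± 0.04 (SD, n = 2). The widest steps were Mir127 over Mir433, at 3.19-fold (log2 1.67 ± 0.11), and Mir665 over Mir493, at 2.09-fold (log2 1.07 ± 0.001). Mir433 and Mir337 did not differ beyond their spread, since Mir337 was the higher one in replicate 1 (log2 ratio -0.05) and Mir433 in replicate 2 (log2 ratio 0.23). Mir337 over Mir434 (0.29 ± 0.16), Mir434 over Mir540 (0.54 ± 0.12), Mir540 over Mir370 (0.45 ± 0.16) and Mir370 over Mir665 (0.22 ± 0.08) gave smaller log2 ratios that passed the rule. These ratios compare counts of different miRNAs, and a difference in how well each is captured would show neither in the SD nor in the intervals.

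**Figure D2:**
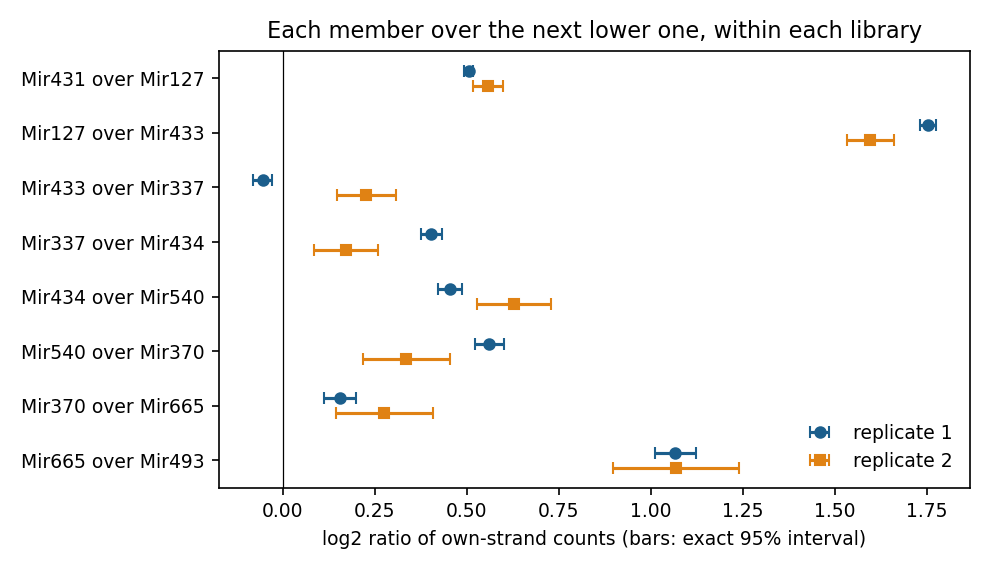
Log2 ratio of own-strand counts of each member over the next lower one by mean, in replicates 1 and 2, with exact 95% intervals. All ratios lie right of 0 except that of Mir433 over Mir337 in replicate 1, at -0.05.

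The members opposite Rtl1 were set against the others. The 4 counted genes opposite Rtl1 summed to 12419 ± 38 CPM, and the other 5 members to 3061 ± 129 CPM (SD, n = 2). The ratio was 3.95-fold in replicate 1 and 4.17-fold in replicate 2, or 2.02 ± 0.06 on the log2 scale, which was larger than the spread. Without Mir431 and Mir337, the leading gene of each side, the log2 ratio was 1.81 ± 0.01. This check kept Mir127, at a mean of 4140 CPM. The remaining genes opposite Rtl1, Mir433 (1298 CPM) and Mir434 (1002 CPM), stood near Mir337 (1225 CPM), the highest of the other side. The excess thus came mostly from Mir431 and Mir127. Along the map, levels did not run in 1 direction: of 8 pairs of members next to each other, the downstream one was higher in 3 and lower in 5, all beyond the spread. These map-order pairs were chosen after the levels had been seen. Mir431 exceeded Mir665, its upstream neighbour among the members, 13.8-fold, and Mir433 was 4.61-fold below Mir431 with 1177 bases between them.

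The Mirg list, the larger group of imprinted miRNA genes further downstream from Mir379 to Mir410, was the closest comparison. The members summed to 15480 ± 166 CPM and the 34 counted genes of the Mirg list to 40708 ± 86 CPM (SD, n = 2). The members were thus 2.63-fold lower in sum, at -1.39 (replicate 1) and -1.40 (replicate 2) on the log2 scale, with a mean of -1.39 ± 0.01, larger than the spread. Of the 39 genes listed for Mirg, those without a row were left out, Mir376a and Mir409 among them. The members held 27.6% ± 0.17 of the counts of both sets together. Gene by gene the picture differed, with a median of 1002 CPM for the members, beside 184 CPM for the 32 detected genes of the Mirg list and 160 CPM for all 34. The leading genes of that list, Mir411 at 9666 CPM, Mir487b at 7710 CPM and Mir379 at 4615 CPM, bracketed Mir431 at 5978 CPM. At 1000 CPM or more in both libraries stood 4 of 9 members and 8 of 34 genes of the Mirg list. All these values use own-strand counts. Another 203712 counts in replicate 1 and 21015 in replicate 2 lay on the opposite strand of 4 rows that overlap hairpins of that list. With them given to the list, an unplanned setting, the members were 3.32-fold lower in sum in each library. The sum, the medians and the 8 of 34 may thus be too low for the Mirg list.

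**Figure D3:**
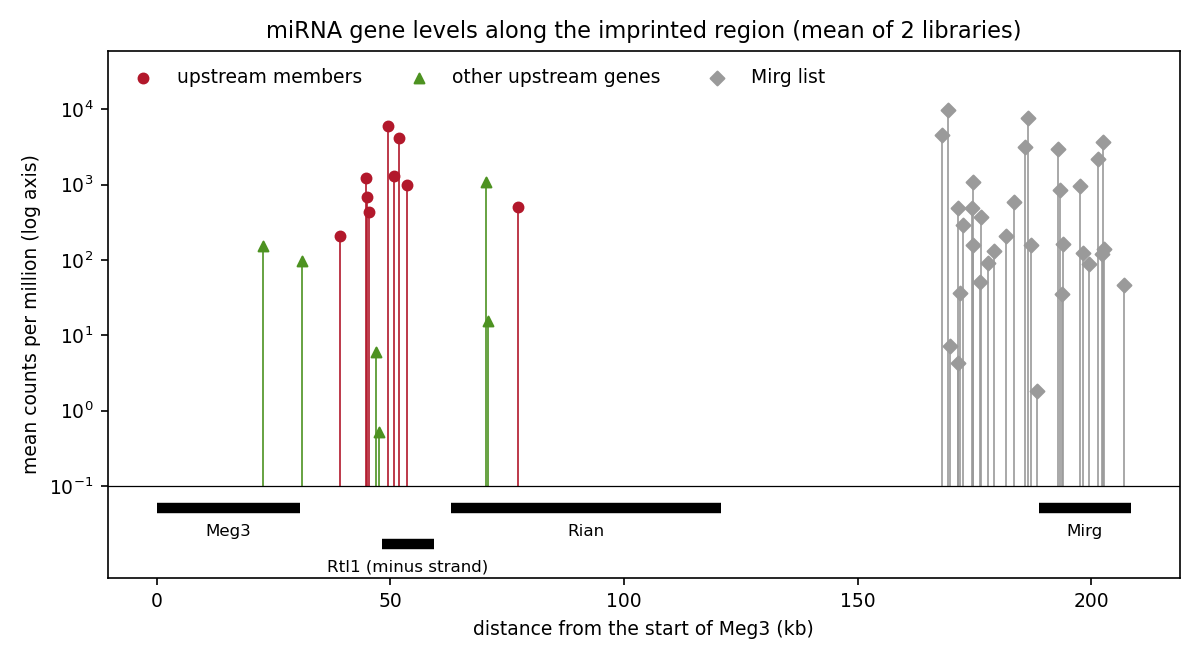
Mean CPM over 2 libraries (log axis) of the counted miRNA genes against their distance in kb from the start of Meg3, with the members, other upstream genes and the Mirg list in separate colours and bars for the Meg3, Rtl1, Rian and Mirg models. The members opposite Rtl1 reach 5978 CPM at Mir431, and the Mirg list reaches 9666 CPM at Mir411; genes at 0 and the row named Mir3071 are not drawn.

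Other miRNA genes of the upstream region were mostly lower than the members. Apart from the row that M21 names Mir3071, which is treated below, 9 listed genes had a row, 5 of them were detected, and together they took 0.138% of miRNA counts in replicate 1 and 0.135% in replicate 2. Mir341, which like Mir370 lies in a Rian intron, was the one detected gene of these that exceeded any member, with 1097 CPM (replicate 1) and 1088 CPM (replicate 2). It stood above Mir434, Mir540, Mir370, Mir665 and Mir493 in both libraries. Mir770, in an annotated Meg3 exon, had 160 and 147 CPM, and Mir673, just downstream of Meg3, had 101 and 95.7 CPM. Mir1188 stood at 17.5 and 13.4 CPM and Mir3070a at 5.90 and 5.95 CPM. Mir3070b, with 10 counts in replicate 1 and 1 in replicate 2 (0.541 and 0.496 CPM), was below the detection limit of 1 CPM. Mir3070a and Mir3070b share runs of 20 bases, so reads common to both may be missing from their counts. Mir432, which lies opposite Rtl1 between Mir434 and Mir136, had 0 counts in both libraries. Mir1906-1 and its copy Mir1906-2 on chromosome X also had 0 counts, but reads that map to both copies would count for neither.

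The Mir136 locus could not be assigned with certainty. The gene ID that M21 gives to Mir136 has no row, and the ID that M21 gives to Mir3071, a hairpin on the minus strand at chr12:109595318-109595397, has a row with an older ID version. Mature miR-136-5p and miR-3071-3p overlap over 20 bases on opposite strands, and are shown because strand alone tells them apart (capitals mark the seeds).
miR-136-5p: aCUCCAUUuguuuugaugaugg
miR-3071-3p: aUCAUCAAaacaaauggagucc
The row held 3698 own-strand and 2 opposite-strand counts in replicate 1, and 469 and 0 in replicate 2, or 200 and 232 CPM on its own strand. Rows that M21 places on the minus strand opposite plus-strand hairpins of the Mirg list looked different. Mir299b held 0.359% of its counts on its own strand in replicate 1 and 0.275% in replicate 2, and Gm25750, Gm25252 and Gm24321 held 0%. The strand that the authors' annotation gave to the Mir3071 row is not stated in any source used here, so its value is reported for the row alone and counted neither among the members nor among the other upstream genes.

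Antisense reads at the members were nearly absent. Mir337, which overlaps Mir3544 on the other strand, had 23 opposite-strand counts beside 24046 own-strand counts in replicate 1, and 1 beside 2316 in replicate 2. The other 8 members had 0 opposite-strand counts in either library. Over all members the opposite-strand share was 0.00798% in replicate 1 (exact 95% Clopper-Pearson interval 0.00506 to 0.0120%) and 0.00323% in replicate 2 (8.2e-05 to 0.0180%). Over all miRNA genes it was 4.59% and 4.48%, and over the Mirg list 5.10% and 5.44%. In that list every opposite-strand count came from the Mir299b row, so a near absence of antisense reads was not particular to the members. Only at the 4 counted members opposite Rtl1 would reads from the Rtl1 mRNA fall on this opposite strand, and Mir337 is not one of them. The libraries were also limited to short RNA, so the share does not measure Rtl1.

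Replicate 1 was set against replicate 2 for each gene by an exact two-sided binomial test with the totals held fixed, adjusted over all 419 detected genes by the Benjamini-Hochberg method. The test compares 2 libraries, not conditions, and covers counting error only. By an adjusted p under 0.05, 4 of 9 members differed, beside 29.4% of all detected genes. Mir337 was 1.13-fold as high in replicate 1 as in replicate 2 (interval 1.09 to 1.18, exact binomial adjusted p = 3.6e-08), Mir540 1.09-fold (adjusted p = 0.0139, exact) and Mir127 1.04-fold (adjusted p = 0.00431, exact). Mir433 went the other way, at 0.933-fold (interval 0.897 to 0.971, exact binomial adjusted p = 0.00368). None of the 4 reached 2-fold, a rule that 2.63% of detected genes passed. The exact test of edgeR at a common dispersion also allows for spread between the libraries over genes. With it, 0 members were called and 0 had an unadjusted p under 0.05, beside 5 and 13 of all 419 detected genes. The dispersion was estimated from the same 2 libraries taken as replicates. Their difference was thus part of the spread, so this test cannot decide whether the members differ.

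The differences were small beside those of other genes. The median absolute log2 ratio was 0.06 over the 9 members, 0.12 over the 32 detected genes of the Mirg list and 0.15 over all 419 detected genes. Lower counts carry more counting error, and the members stand high in the table, so these medians do not compare genes of like depth. Signed medians were 0.01 for the members, -0.01 for the Mirg list and 0.01 for all detected genes. Mir431 gave 1.00-fold (interval 0.984 to 1.02) and Mir493 1.01-fold (0.914 to 1.12). Marker miRNAs of other tissues also differed between the libraries. The epithelial list summed to 2144 CPM in replicate 1 and 1488 CPM in replicate 2 with all 7 genes detected, and the liver miRNA Mir122 stood at 395 and 160 CPM; the part of such tissue in the values of Mir337, Mir540 and Mir127 was not tested.

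**Figure D4:**
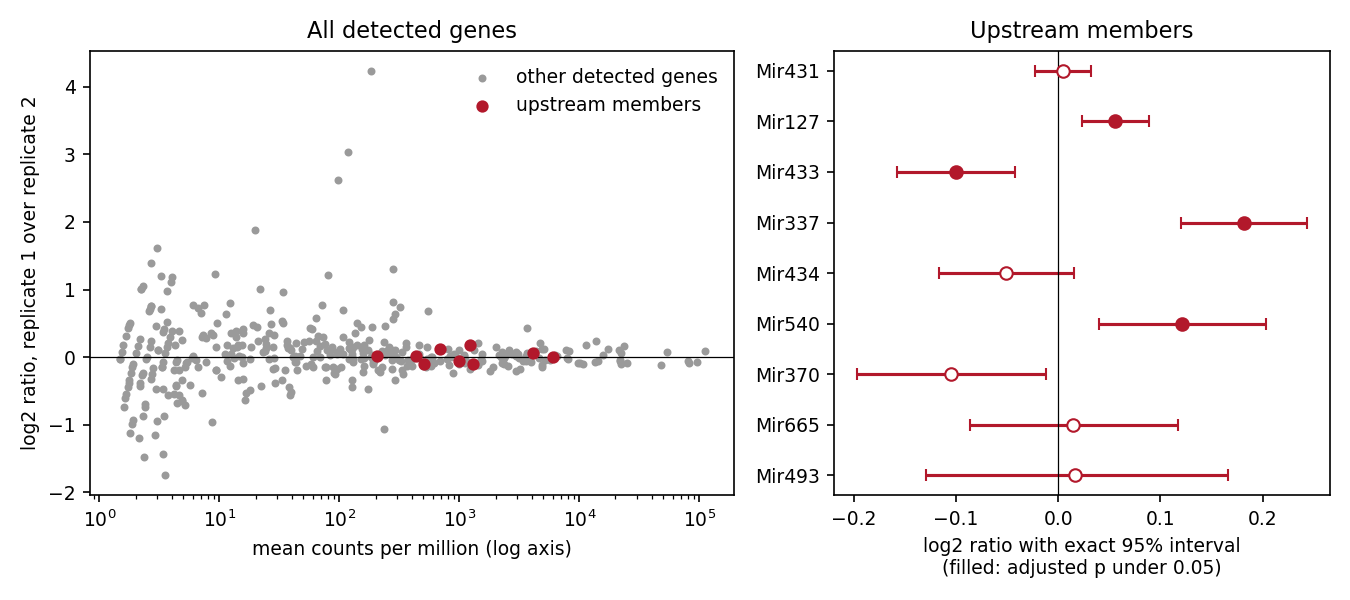
Left, log2 ratio of replicate 1 over replicate 2 against mean CPM (log axis) for the 419 detected genes with the 9 members in red; right, the members' log2 ratios with exact 95% intervals, filled where the adjusted p was under 0.05. The members lie between -0.10 for Mir370 and 0.18 for Mir337.

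By level alone, over the 2 libraries, the detected non-member closest to Mir431 was Mir93, with 6229 CPM in replicate 1 against 6182 CPM in replicate 2 (Euclidean distance 0.08 on log2(CPM + 1)). The closest to Mir127 was Mir302a at 4090 and 3984 CPM (distance 0.05), and the closest to Mir433 was the smooth muscle miRNA Mir145a at 1163 and 1313 CPM (distance 0.11). With 2 libraries of 1 group this likeness is one of level, not of a pattern across conditions.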

How the data were processed

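Small RNA sequencing of 2 mouse heart libraries was used. The deposited files hold unnormalized counts of reads for each miRNA gene, made on build mm10 with GENCODE M4, per the file headers in the notes beside them. No source used here names the aligner or counter. There are 4 summary rows and 3 unlabelled count columns in a table, the columns being taken from their layout and sums as both strands, own strand and opposite strand; the last 2 add up to the first for every gene. Own-strand counts were used. Unmapped, multimapping and unassigned reads (38.4%, 20.8% and 8.77% in replicate 1; 27.5%, 24.1% and 7.04% in replicate 2) were left out, so a read that maps to several places counts for no gene.

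IDs were matched to GENCODE M21 without version: 1894 of 1973 matched, 1815 with the same version, and Mir337, Mir540 and Mir127 have another version. All 10 members matched the RefSeq table. CPM, ratios and exact intervals were computed from the deposited counts (Python 3.11.15, scipy 1.17.1, edgeR 4.0.16, DESeq2 1.42.0). Intervals and the limit set by a count of 0 (3 counts) cover the error of counting alone, because PCR reads lacking molecular identifiers are not independent. No p across replicates is given, as 2 libraries allow no two-sided sign-flip p below 0.5. Whether the replicates differ by litter is not stated. The exact binomial test and the ratio intervals were checked on simulated counts that held counting error only, and edgeR's test was not checked.

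The members and lists were chosen with earlier results of these data known. Named were all members, the 3 highest genes of the Mirg list, the other upstream genes, the non-member nearest in level to each of the 3 leading members, and genes overlapping a member on the other strand.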

Additional observations from a re-analysis of the deposited data

Results flagged for a closer look

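Counts of 2 kinds outside the comparisons stood above the limit of 3 counts that a count of 0 allows. The opposite strand of Mir337, where Mir3544 lies, held 23 counts in replicate 1. The row that M21 names Mir3071, at the Mir136 locus, held 3698 counts on its own strand in replicate 1, and 469 in replicate 2, a level close to that of Mir493.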

How the results depend on the processing

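The members' share of 1.55% was 1.48% with counts on both strands, 0.567% ± 0.097 of all reads in the table, 0.95% without Mir431 and 1.57% with the row named Mir3071 counted as Mir136, and 1.54 to 1.56% with either library alone. The ratio to the Mirg list lay between -1.40 and -1.39 (log2) with either library alone, and was -1.47 with both strands, -1.71 without the leading gene of each side, -1.37 with the Mir3071 row added and -1.73 with opposite-strand counts of 4 overlapping rows given to that list. The ratio of members opposite Rtl1 to the others lay between 1.98 and 2.06 with either library alone. The Mir3071 row and the opposite-strand counts were alternatives chosen after seeing the data. With a single library, where neither the shared direction nor the SD applies, the interval lay above equality for 7 pairs in replicate 1 and 8 in replicate 2. Members differing between the libraries numbered 4 with TMM or DESeq2 scaling (118 of 419 genes with each), without a detection filter (114 of 783) and with both strands (128 of 428). They numbered 0 with edgeR's exact test (5 of 419 genes), which allows for spread over genes, estimated from the same 2 libraries. Its scaling also moved the log2 ratio of every member by -0.015, so that Mir431 (-0.011) and Mir665 (-7.0e-04) changed sign; neither had passed before. All 9 members stayed detected at 10 CPM and at 10 counts, limits far below the lowest member, Mir493, at 206 CPM and 416 counts in replicate 2. The share of all genes at these limits is not given. No paired analysis was possible because there is only 1 group.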
